A study of Mus musculus with 2 samples.

Results

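The interferons other than interferon alpha were examined in mouse macrophages answering double-stranded RNA. They are the interferon beta gene Ifnb1, the epsilon gene Ifne, the kappa gene Ifnk, the zeta gene Ifnz and the lambda genes Il28a and Il28b, now named Ifnl2 and Ifnl3. Genes were taken by the symbol in the deposited table, which gave 6 probe sets for 6 genes, of 25305 probe sets that carry 1 gene symbol. The cells were bone-marrow-derived macrophages of the C57BL/6J strain, grown for 7 days in medium with L929 culture supernatant and treated for 9 h with poly(I:C), a double-stranded RNA made by synthesis, at 5 µg/ml. One group was wild-type (WT) and the other lacked Oasl1 (Oasl1-/-), and both received poly(I:C), so that no untreated cells were measured. For each genotype, RNA was mixed from 3 samples and read on 1 Affymetrix Mouse Gene ST array. No replicate error exists for any value, so no test was made. All differences are log2 values of the Oasl1-/- array minus those of the WT array.

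Interferons are secreted antiviral cytokines that fall into types by receptor. Beta, epsilon, kappa and zeta are type I interferons and act through the receptor made of IFNAR1 and IFNAR2, while the lambda genes encode type III interferons, which act through IFNLR1 and IL-10Rβ. In macrophages double-stranded RNA is sensed by TLR3 and by the RIG-I-like receptors, and the kinases TBK1 and IKKε then activate IRF3, which with NF-kB and ATF2/c-Jun switches on Ifnb1. Epsilon is best known from epithelium of the female reproductive tract and kappa from keratinocytes. OASL1 is known to hold back translation of Irf7 mRNA, which encodes the factor that drives the interferon alpha genes and strengthens Ifnb1.

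The sequences upstream of the start of Ifnb1 and Ifne are shown because both genes lie in one cluster and only the former passed the detection floor, on the Oasl1-/- array. They are taken from RefSeq's GRCm38.p6 annotation, 250 bases each, 5′ to 3′ on the gene's strand. Such windows before the annotated start were matched for all 6 genes. Whether the annotated start is where transcription begins was not checked, so a window can take in transcribed sequence. Capitals mark 3 motifs, which a script searched on both strands. The letters GGAAATTCC stand for the core of an NF-kB site. The letters AANNGAAA stand for an IRF site. The letters TATAAA stand for the TATA box, and the AP-1 motif TGANTCA was also searched.
Ifnb1, chr4:88522795-88523044, minus strand: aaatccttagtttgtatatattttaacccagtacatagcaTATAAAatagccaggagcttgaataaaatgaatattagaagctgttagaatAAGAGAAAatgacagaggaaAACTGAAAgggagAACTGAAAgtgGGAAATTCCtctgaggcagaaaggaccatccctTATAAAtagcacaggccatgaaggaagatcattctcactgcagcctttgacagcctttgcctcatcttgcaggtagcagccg
Ifne, chr4:88880202-88880451, minus strand: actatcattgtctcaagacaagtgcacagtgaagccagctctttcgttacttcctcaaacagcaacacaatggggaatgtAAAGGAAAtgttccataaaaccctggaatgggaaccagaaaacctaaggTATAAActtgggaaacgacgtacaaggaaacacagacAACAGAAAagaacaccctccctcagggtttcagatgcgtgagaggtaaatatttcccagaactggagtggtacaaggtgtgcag
The Ifnb1 window held 3 IRF matches and, downstream of them, 1 NF-kB match at 115 to 107 bases before the annotated start. It held TATAAA matches at 210 to 205 and at 82 to 77 bases before that start. The distances to the true start of transcription may differ from these. The Ifne window held 2 IRF matches, 1 TATAAA match and no NF-kB match. Of 32851 windows of the same length before annotated starts, 0.286% held GGAAATTCC, 21.3% held AANNGAAA, 12.4% held TATAAA and 6.75% held TGANTCA. No TGANTCA was found in any of the 6 windows. Only these letters were searched, so an ATF2/c-Jun site spelled otherwise would have been missed. The windows of Ifnk, Ifnz, Il28a and Il28b held none of the motifs. Those of Il28a and Il28b probably hold transcribed sequence, so the promoters of the lambda genes may not have been searched. The windows of 13 interferon alpha genes held AANNGAAA in 13 cases and GGAAATTCC in 0. A match is only a stretch of letters and was not measured here as a bound site.

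Detection was judged by a floor, the 95th percentile of 5267 negative control probe sets on the same array (intron and antigenomic background probes). The floors were 7.75 for WT and 7.68 for Oasl1-/-, and 29.7% of the probe sets with 1 symbol exceeded it on at least 1 array. Oasl1, the targeted gene, was 12.59 in WT and 11.13 in Oasl1-/-. The remaining signal does not measure the knockout, since the part of its probes that lies in the deletion is not known. The macrophage markers Adgre1, Csf1r, Cd68, Itgam, Lyz2 and Cd14 were all bright, between 10.77 and 12.88 on both arrays. Signals of different probe sets depend on their probes, so levels are compared between arrays and not between genes.

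None of the 6 interferon genes was detected in WT macrophages 9 h into the poly(I:C) response, and in Oasl1-/- cells Ifnb1 and Il28a cleared the floor, by 0.18 and 0.21. With the 99th percentile of the controls as the floor, or with the antigenomic controls alone, 0 of the 6 cleared it on either array, and both lower bounds given for these genes were lost. On the WT array 0 of the 6 exceeded the floor, 2 were above it on the Oasl1-/- array alone, and 4 were below it on both. Over all probe sets with 1 symbol, 0.775% were above the floor on the Oasl1-/- array only. By the measured values 5 of the 6 were higher in Oasl1-/- and 1, Ifne, was lower, and 53% of all probe sets were higher. Their median difference was 0.37, ranging from -0.12 to 1.41, against a median of 0.01 over all probe sets with 1 symbol. At least 2-fold higher by the measured values and above the floor on at least 1 array was 1 of the 6, Ifnb1, and the same held for 0.12% of the probe sets above the floor and, without a floor, for 0.0593% of all. No gene of the 6 was 2-fold lower, which held for 0.0664% of probe sets.

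**Figure D1:**
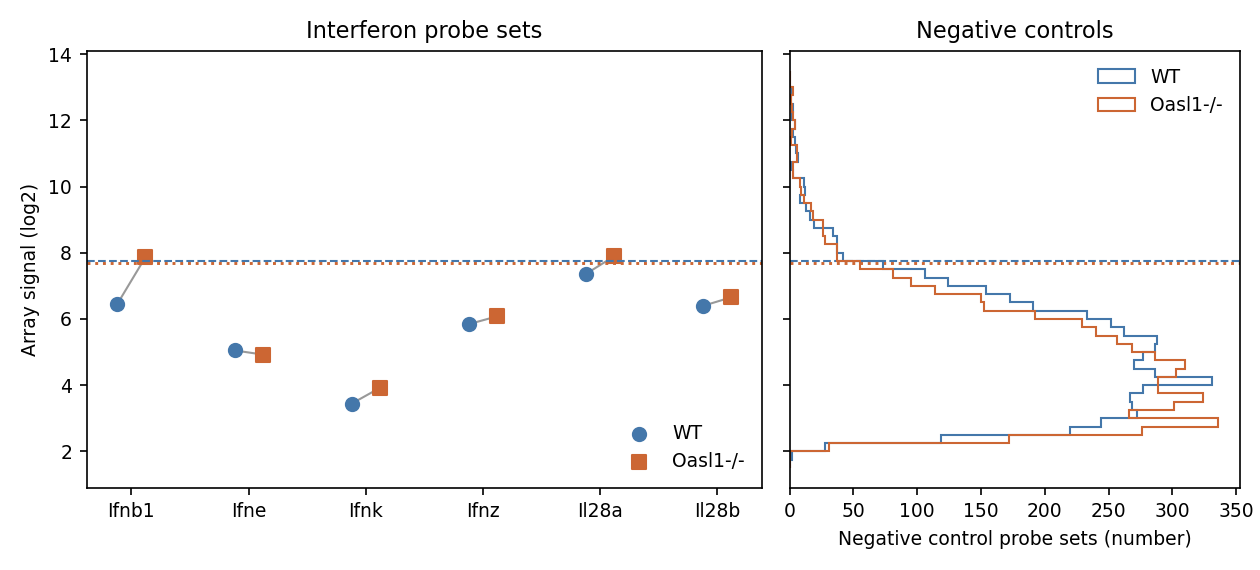
Left, log2 array signal of the 6 interferon probe sets on the WT array (circles) and the Oasl1-/- array (squares), with the floor of each array (dashed, WT; dotted, Oasl1-/-). Right, number of negative control probe sets by signal on the same axis; only Ifnb1 and Il28a in Oasl1-/-, at 7.87 and 7.89, lie above a floor.

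Ifnb1, an early product of the response to double-stranded RNA, had the largest measured difference of the 6, but its WT value was below the floor. The log2 lower bounds of Ifnb1 (0.12) and Il28a (0.14) are the Oasl1-/- signal minus the WT floor. They follow the brightness of each probe set and do not rank the 2 genes. The Ifnb1 probe set (NM_010510, 25 probes) spans the whole gene on chromosome 4, positions 88167929 to 88168698 on the minus strand in the NCBIM37 build. The WT array read 6.45 and the Oasl1-/- array 7.87, which differ by 1.41. In WT it lay at the 82.4th percentile of the negative controls, where a signal cannot be told from background, and in Oasl1-/- at the 95.7th. Because only the Oasl1-/- value exceeded the floor, the fold is a bound, 1.08-fold. In log2 that is less than the robust SD of the differences of probe sets of like mean signal (0.21). With 1 array per genotype the bound is not a guaranteed minimum. Passing the floor through the Oasl1-/- array alone favours genes that read higher there, so the count of genes above it is not evidence of a difference.

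The size of the Ifnb1 difference was set against what the arrays gave elsewhere. It ranked 11 among the differences of the 25305 probe sets, and the 10 above it were all interferon alpha genes, a rank that uses WT values below the floor. Of 2853 probe sets whose mean signal lay within 0.5 of that of Ifnb1, 4 differed by as much or more in this direction, Ifnb1 included. Of 408 negative controls with such a mean, 0 did, and of all 5267 negative controls 14 did. All 14 were intron controls, of which the highest difference was 2.76, while 0 of the 45 antigenomic controls did and their highest difference was 0.35. These shares describe the 2 arrays and carry no information on how cultures vary.

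The cluster around Ifnb1 contained genes with large differences beside genes with almost none. Of the 14 interferon alpha genes measured there, 12 were higher in Oasl1-/-, by measured values with a median of 2.79 and a range from -0.24 to 4.71. As for Ifnb1, 0 of the 14 were above the floor in WT, so these values are not measured folds: 8 were above it in Oasl1-/- alone and 6 on neither array. The log2 lower bounds of the 8 ran from 0.0081 for Ifnab to 2.33 for Ifna15, beside 0.12 for Ifnb1. These bounds follow the brightness of each probe set in Oasl1-/- and do not rank the genes. Ifna15 lies 31.4 kb from Ifnb1 and read 5.37 in WT and 10.09 in Oasl1-/-. The 9 probe sets of the region assigned to no interferon gene differed by -0.45 to 0.29.

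**Figure D2:**
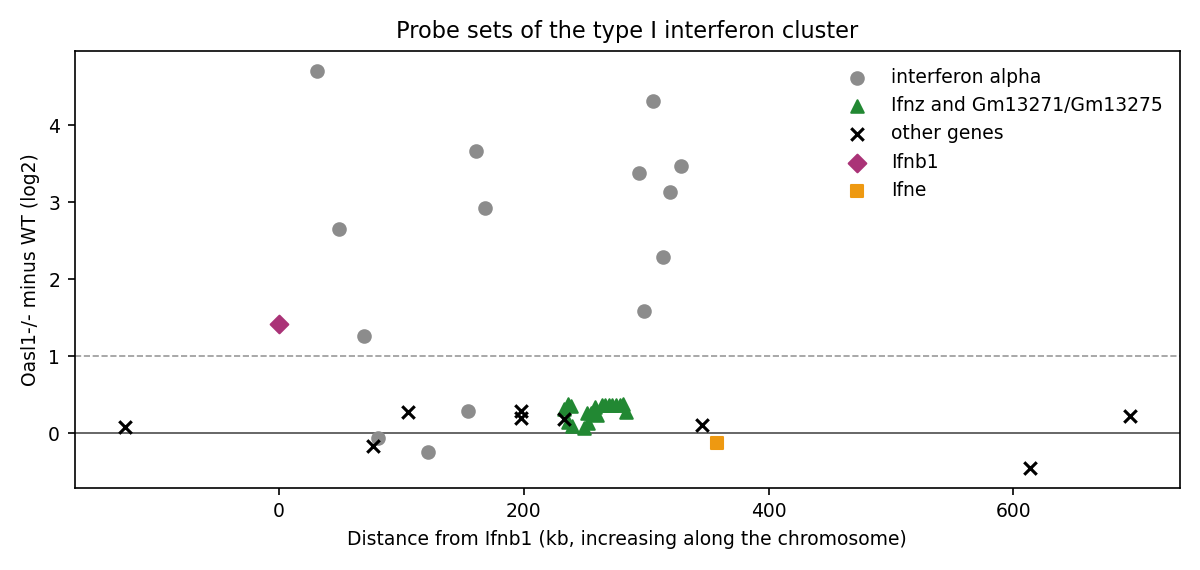
Difference between the arrays (Oasl1-/- minus WT, log2) of each probe set with 1 gene symbol around Ifnb1, by distance from Ifnb1 in kb; symbols give the kind of gene and the dashed line marks 2-fold. Ifnb1 at 1.41 lies among the interferon alpha genes, while the zeta probe sets stay between 0.07 and 0.38 and Ifne is at -0.12.

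Ifne, the epsilon gene, lies 358 kb from Ifnb1 at the far end of the cluster (NM_177348, chromosome 4, positions 88525442 to 88526105, minus strand, 25 probes). Its signal was 5.05 in WT and 4.93 in Oasl1-/-, at the 55.4th and 58.8th percentiles of the negative controls. Both values were below the floor, so no fold is given, and the difference of -0.12 turned to 0.04 when the median difference of the intron controls was subtracted. Ifne was therefore not detected in either genotype.

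Ifnz, the gene of interferon zeta, also called limitin, belongs to a block of near-identical gene copies between the interferon alpha genes. Its own probe set (NM_197889, chromosome 4, positions 88428035 to 88429496, plus strand, 39 probes) read 5.84 on the WT array and 6.08 on the other, which differ by 0.23, both below the floor. The table holds 18 further probe sets assigned to Gm13271, which RefSeq lists with Ifnz as a synonym, or to Gm13275, in the same block. All 19 were higher in Oasl1-/- by the measured values, from 0.07 to 0.38 with a median of 0.34, and none was above the floor. They were not independent readings: 6 of them, all assigned to Gm13271, had identical values of 5.51 and 5.87, and the 19 gave only 13 distinct pairs of values. The 15 probe sets on the plus strand, the strand of Ifnz, had a median of 0.36, and the 4 on the opposite strand one of 0.11. The values of the Ifnz probe set were shared with none of the other 18. Probe sequences were not used here, so how far it takes up transcripts of the copies is not known.

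Background probes designed to match nothing in the genome also read higher on the Oasl1-/- array. The antigenomic controls, 45 in number, had a median difference of 0.14, and the 11 of them with a mean signal between 5 and 8 were all higher in Oasl1-/-, by 0.17 to 0.33 with a median of 0.27. The intron controls went the other way, with a median of -0.16. The part of such shifts in the zeta and lambda values was not tested. After subtraction of the median of all 45 antigenomic controls, a step added once the data had been seen, Ifnz differed by 0.09. The measured differences of Ifnz (0.23) and Il28b (0.26) were below the median of 0.27 of the 11 controls, which was not subtracted.

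Ifnk, the kappa gene, lies apart from the cluster on the same chromosome (NM_199157, positions 35099304 to 35101299, plus strand, 25 probes). It read 3.44 in WT and 3.92 in Oasl1-/-, at the 20.8th and 35.8th percentiles. The difference of 0.47 was met or exceeded by 1.73% of the 3231 probe sets of like mean signal and by 12.5% of the 1215 negative controls of like mean. With a pseudocount of 32 on the linear scale it was 0.14. Ifnk was not detected in either genotype.

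The lambda genes lie as a pair on chromosome 7, with 12441 bases between them and on opposite strands. Il28a (NM_001024673, positions 29293880 to 29295396, minus strand) read 7.36 on the WT array and 7.89 on the other, which differ by 0.53. It was above the floor in Oasl1-/- alone, by 0.21, which gives a bound of 1.10-fold (0.14 in log2). That is less than the robust SD of the differences of probe sets of like mean signal (0.18). With 1 array per genotype the bound is not a guaranteed minimum. Il28b (NM_177396, positions 29307838 to 29309341, plus strand) read 6.40 and 6.66, a difference of 0.26, with both values below the floor. Each lambda probe set rests on only 8 probes, against 25 or more for the other 4 genes.

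Differences of the size seen for Il28a were uncommon among probe sets as bright, and that of Il28b was not. Of 2692 probe sets with a mean within 0.5 of that of Il28a, 0.520% differed by as much or more, Il28a included. But among the 53 of them with at most 10 probes it was 3.77%, which is only 2 probe sets, Il28a included. Among 258 negative controls of like mean it was 5.81%. For Il28b the shares were 12.9% of 3463 probe sets and 17.6% of 665 controls. The other 6 probe sets with 1 symbol near the pair, which belong to genes that are not interferons, differed by -0.16 to 0.33, and 4 of them were higher. With the median of all 45 antigenomic controls subtracted, Il28a differed by 0.39 and Il28b by 0.11.

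The windows before the annotated starts of the lambda genes were nearly identical. They matched at 247 of 250 bases, and the window of Il28b is printed with the 3 bases that differ from Il28a in capitals. Both windows hold an ATG followed by letters like those at the start of an intron (atgaagccaggtgagt). They thus probably take in transcribed sequence, and their likeness is not a measure of how alike the promoters are.
Il28b (Ifnl3), chr7:28522586-28522835, plus strand, GRCm38.p6: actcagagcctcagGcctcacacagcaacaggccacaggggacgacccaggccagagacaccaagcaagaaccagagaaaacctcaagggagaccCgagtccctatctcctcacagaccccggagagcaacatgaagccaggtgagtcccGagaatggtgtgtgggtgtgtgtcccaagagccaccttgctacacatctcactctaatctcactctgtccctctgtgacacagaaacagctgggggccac
Probe sequences were not used here, so how far each lambda probe set takes up the transcript of the other is not known.

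**Figure D3:**
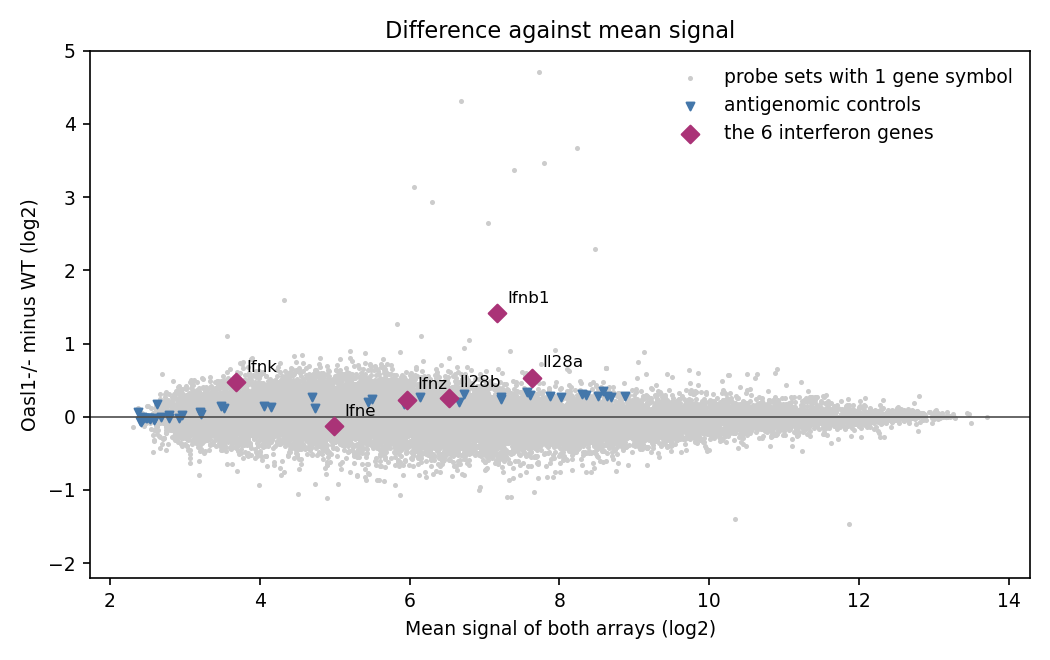
Difference between the arrays (Oasl1-/- minus WT, log2) against the mean signal of both arrays (log2) for all probe sets with 1 gene symbol (grey), the 45 antigenomic controls (triangles) and the 6 interferon genes (diamonds). Ifnb1 at 1.41 stands above the grey cloud, while Ifnz and Il28b lie at the height of the antigenomic controls.

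The receptor chains for these interferons were measured at similar values in both genotypes, and the chain specific to the lambda interferons was not detected. Ifnar1 was 10.21 in WT and 10.32 in Oasl1-/-, and Ifnar2 was 10.53 and 10.43. Il10rb, the chain that the lambda interferons share with other cytokines, was 11.50 and 11.38. Il28ra, now Ifnlr1, was 5.21 on both arrays, below the floor. The floor was passed by 3 of the 4 chains, without a 1.5-fold difference in any, while 0.917% of all probe sets above the floor did so in either direction.

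The transcription factors of the Ifnb1 enhancer were detected, with close values in both genotypes. All 9 activators and coactivators were above the floor, none past 1.5-fold. A difference below 0 was measured for 8 of them, but also for most of all probe sets above the floor. The exception was Hmga1 (0.02), represented by the brighter of 2 probe sets, which is placed on chromosome 11. Whether that probe set reads Hmga1 itself or a related copy was not checked. The median of the 9 was -0.14, against -0.04 over all probe sets above the floor. Irf7, whose mRNA OASL1 acts on, had the largest difference, from 12.48 to 12.19 (-0.28), and Atf2, a partner of c-Jun at the enhancer, followed with 8.98 and 8.73 (-0.25). Irf3, the factor activated first, was 7.95 and 7.81. The repressors Prdm1 (8.66 and 8.56) and Irf2 (9.89 and 9.81), which bind the IRF elements, were also nearly equal.

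The genes that sense double-stranded RNA and those that signal from the interferon receptor differed little. Of the 9 sensing genes 7 were above the floor, 4 with a difference above 0 and 3 below, with a median of 0.05 and none past 1.5-fold. Dhx58, a regulatory RIG-I-like receptor, was 10.99 in WT and 11.15 in Oasl1-/-, and Ddx58, which encodes RIG-I, was 11.94 and 12.09. Ticam1 (7.46 on both arrays) and Traf3 (7.72 and 7.60), the adaptors of TLR3 signalling, were below the floor. All 5 receptor signalling genes were above it, with a median of 0.08 and none past 1.5-fold. Tyk2, a kinase bound to IFNAR1, was 9.98 and 10.12, and Stat2, a part of the factor ISGF3, was 11.89 and 11.97.

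**Figure D4:**
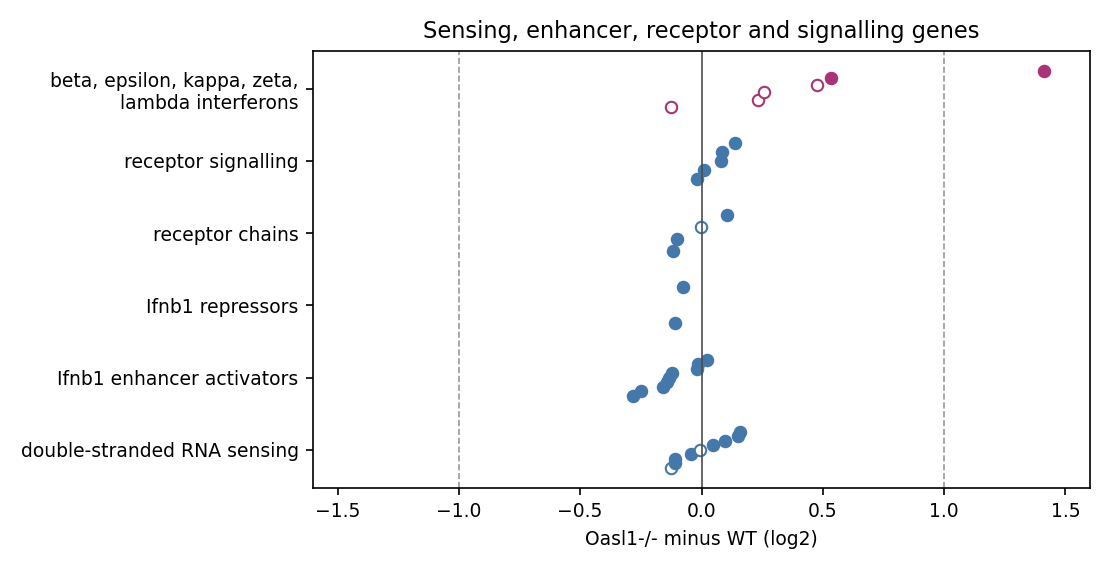
Difference between the arrays (Oasl1-/- minus WT, log2) of each gene of 5 pathway lists and of the 6 interferon genes (top row); filled points passed the floor on 1 or both arrays, open points on neither, and dashed lines mark 2-fold. The pathway genes lie between -0.28 and 0.16, and Ifnb1, at a measured 1.41, is the only point past 2-fold.

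Markers of other cells that can make these interferons were mostly below the floor. In a bulk array a change in the number of such cells and a change in RNA per cell cannot be told apart. Of 5 markers of plasmacytoid dendritic cells, known producers of type I and III interferons, only Tcf4 was above the floor (10.04 and 10.06), and Siglech was 5.23 in WT and 5.39 in Oasl1-/-. All 5 were higher in Oasl1-/-, with a median of 0.14. The linear signals of the 5 summed to 1192 in WT and 1218 in Oasl1-/-, and those of the 4 without Tcf4 to 136.9 and 149.3. None of 6 epithelial markers was above the floor, but all 6 were higher in Oasl1-/-, with a median of 0.18. Their signals summed to 258.9 and 325.9, and without the brightest, Krt8, to 177.8 and 202.1. None of 5 T and NK cell markers was above the floor. Their sums were 144.4 and 138.3, and without Cd3e 68.5 and 63.8. Of 6 neutrophil markers only Ngp was above the floor, in Oasl1-/- alone (6.90 and 7.79). All 6 were higher in Oasl1-/-, with a median of 0.63. The sums were 368.5 and 587.1, and without Ngp 249.3 and 365.1. No marker was listed at 0. The part of any of these cells in the interferon values was not tested.

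The probe sets most like Ifnb1 were sought by the distance between their pairs of log2 values on the 2 arrays. The nearest was Ngp, a neutrophil granule protein, with 6.90 and 7.79 at a distance of 0.45, followed by Uchl1, a ubiquitin hydrolase (6.86 and 7.51), and Lpar5, a lysophosphatidic acid receptor (6.94 and 7.54). Each had a smaller difference than Ifnb1. Around Il28a the nearest was OTTMUSG00000000268 (7.26 and 7.85) at a distance of 0.11, followed by Iqgap3, a scaffold protein (7.25 and 7.82), and LOC669999 (7.49 and 7.95).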

How the data were processed

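Both deposited tables hold log2 values per probe set from the authors, identical in all 35556 rows, and the authors' deposited log2 ratio column equals Oasl1-/- minus WT in every row (tolerance 0.0001). GCOS and RMA are named, per the submitters' processing notes. RMA corrects background, brings arrays to a common distribution and summarises probes. RMA compresses differences of dim probe sets, and mixing RNA of 3 samples leaves no view of how cultures vary. Precision is limited by having 1 array per genotype.

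Here, probe sets with 1 gene symbol were kept (2 with several were left out). RefSeq accessions updated the names of 20515. In the pathway lists, the brightest probe set by the mean of both arrays stands for a gene with several. Coordinates are the table's, and 92.9% of 2286 probe sets described on NCBIM37 overlap that position. A probe set above the floor on 1 array has a lower bound: the bright signal is set against the floor of the other array, or against the dim signal where that is higher.

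The 6 genes and the lists were chosen with earlier results of these data known, as were the motifs, with the Ifnb1 promoter in mind. Named were the 6 genes, Oasl1, Irf3, Irf7, the receptor chains, per pathway list the genes past 1.5-fold (otherwise the 2 largest differences), and the 3 probe sets nearest to Ifnb1 and Il28a. Other examples, among them the repressors, the adaptors, the markers, the zeta copies and the interferon alpha genes, were chosen after their values were seen. The counting was tested on simulated data, with changes set only in probe sets well above the floors. That test therefore gives no information on genes near or below the floor, where the 6 genes lie. Alternatives are given in the closing section. Versions were Python 3.11.15, statsmodels 0.14.6, NumPy 2.4.6 and pandas 2.3.3.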

Additional observations from a re-analysis of the deposited data

How the results depend on the processing

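Of 15 alternatives, 8 change only a floor, a threshold, the table read or the averaging of probe sets, of which each gene has 1, and left the differences as they were. Of the other 7, Ifne moved by less than the robust SD of probe sets of like mean signal (0.18 to 0.23) under 7, Ifnz, Il28a and Il28b under 6, and Ifnb1 and Ifnk under 5. No paired analysis was possible because each genotype has 1 array. With dim values raised to the floor, Ifnb1 differed by 0.12 and Il28a by 0.14, while Ifnk, Ifnz and Il28b were each at -0.069, the gap between the floors. With a pseudocount of 32, Ifnb1 differed by 1.15 and Ifnk by 0.14. The number of genes above the floor was 2 as reported, 0 with the 99th percentile or the antigenomic controls alone as the floor, and 6 with no floor. The number at least 2-fold higher was 1 as reported and 0 at a 3-fold threshold, with the 99th percentile, with the antigenomic controls or with dim values raised to it. With the 90th percentile as the floor, the log2 bound of Ifnb1 was 0.78. Il28a, at the 92.5th percentile of the negative controls in WT, then passed on both arrays, so its 0.53 is the measured difference. Over all probe sets the count at least 2-fold different was 14, and it was 69 at 1.5-fold, 8 at 3-fold, 8 with the antigenomic controls, 4 with the 99th percentile, 23 with no floor and 8 with dim values raised to it. The antigenomic floor, the centring on either control set and the values of Ifnb1 and Il28a given at the 90th percentile were chosen after seeing the data. Detection of Ifnb1 and Il28a in Oasl1-/-, and of Il28a in WT, thus depends on the floor. Signal over background limits what these arrays show for Ifne, Ifnk, Ifnz and Il28b.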
